A study of Caenorhabditis elegans with 16 samples.

Results

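RPB-6 occupancy was compared between the L2 and L4 larval stages in the seam cells and in the hypodermis of *Caenorhabditis elegans*, and the stage change in the hypodermis was subtracted from that in the seam cells. RPB-6 occupancy of a gene is the mean log2 ratio of *dam:rpb-6* to *dam:NLS-GFP* over the GATC fragments that it overlaps. The difference between the stage changes, seam cells minus hypodermis, is called the interaction, and it is above 0 where the L4 − L2 value was larger in the seam cells. It was computed for 19983 protein-coding genes from the 8 *dam:rpb-6* samples among the 16 samples of the series, each set against 1 sample of the control fusion *dam:NLS-GFP* of the same cell type and stage. Targeted DamID (TaDa) expresses an RNA polymerase subunit fused to the bacterial Dam methyltransferase in chosen cells, so that transcribed genes gain adenine methylation at GATC sites, and free nuclear Dam corrects for open chromatin. The seam fusion was driven by *srf-3i1* (strain MBA698, control MBA692) and the hypodermal fusion by *dpy-7syn1* (strain MBA688, control MBA693), from single-copy transgenes in animals grown on dam-/dcm- bacteria at 20 °C. Larvae were collected 24 hours (L2) and 48 hours (L4) after seeding, with 2 replicates per group, and DNA came from whole animals, so a cell type is defined by the promoter alone. Methylation laid down before a stage can persist into it, and fewer methylated cells of a type cannot be told apart from less methylation per cell.

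The seam cells are lateral epidermal cells that divide like stem cells at each larval stage, and most of their anterior daughters fuse with the hypodermis, the large syncytium that covers the body. Both cell types secrete the collagens and other matrix proteins of the cuticle, which is remade at every moult, and collagen genes are switched on in waves within each moulting cycle and in stage-specific sets. At L4 the seam cells stop dividing, fuse with each other and make the ridges of the adult cuticle called alae, while both cell types prepare the adult cuticle with its struts.

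The replicates limited what the interaction could show. Across genes, the seam replicates correlated with a Pearson r of 0.31 at L2 and 0.72 at L4, and the hypodermal replicates with an r of 0.80 at L2 and 0.77 at L4. The stage change of replicate 1 correlated with that of replicate 2 at an r of 0.05 in seam cells and 0.27 in hypodermis, so a single gene's change was poorly repeated. The mean stage changes of the 2 cell types correlated across genes at an r of 0.10 and a Spearman rho of −0.03, over genes that share libraries and are not independent. In seam cells at L4 each replicate was set against the control of the other number, because the scores of replicate 1 against control 1 ran against its scores against control 2 (r = −0.26), whereas for the other 7 samples this r lay between 0.71 and 0.93. That choice was made with the scores known. Of 11 seam markers, 7 to 9 had occupancy above 0.5 in each seam sample and 0 in each hypodermal sample. Of 7 hypodermis markers, 4 to 6 were above 0.5 in each seam sample, against 5 to 7 in hypodermis. The hypodermis list is not specific to that cell type, since it includes *nhr-25* and *dpy-7*. The paper describes *nhr-25* as expressed in both tissues and the *dpy-7* promoter as weakly active in dividing seam cells. Body wall muscle markers stood at a median of 1.53 in replicate 2 of seam cells at L2 and −0.20 in replicate 1, with 7 and 3 of 9 above 0.5. At most 1 of the 9 was above 0.5 in each of the other 6 samples.

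No interaction passed correction for multiple tests. limma called 0 of 19983 genes (0%) at an adjusted p under 0.05 for the interaction, for the stage change in seam cells and for the stage change in hypodermis, and the smallest adjusted p of the interaction was 0.589, for the chitinase gene *cht-5* (1.07, SE 0.12), which stood between −0.11 and 0.09 in all seam samples and at 1.26 and 1.35 against 0.17 and 0.06 in hypodermis. At an unadjusted p under 0.05 there were 1177 genes for the interaction (5.89%), 639 of them above 0 (3.2%) and 538 below 0 (2.69%), with 1760 genes for the seam change (8.81%) and 876 for the hypodermal change (4.38%). Genes are therefore described below by a rule with no p-value: a gene was higher at L4 in a cell type when both L4 samples lay above both L2 samples and the mean change was at least 1 on the log2 scale, and lower at L4 in the mirrored case. By this rule 384 genes were higher (1.92%) and 264 lower (1.32%) in seam cells, and 88 were higher (0.44%) and 269 lower (1.35%) in hypodermis. An exact permutation test on 2 against 2 replicate changes cannot give a p below 0.333.

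Most of these genes passed the rule in 1 cell type only. In seam cells alone, 324 genes were higher (1.62%) and 239 lower (1.2%), and in hypodermis alone, 42 were higher (0.21%) and 230 lower (1.15%). Both cell types were higher at 45 genes (0.225%) and lower at 24 genes (0.12%). Opposite changes were seen at 16 genes, 15 of them higher in seam cells and lower in hypodermis (0.0751%) and 1 the other way round (0.005%). The size of 1 cut through a continuum, since the collagen gene *col-19* was just inside the genes higher in both (1.00 in seam cells, 1.22 in hypodermis) and *col-139* just outside (0.98 and 1.64).

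**Figure D1:**
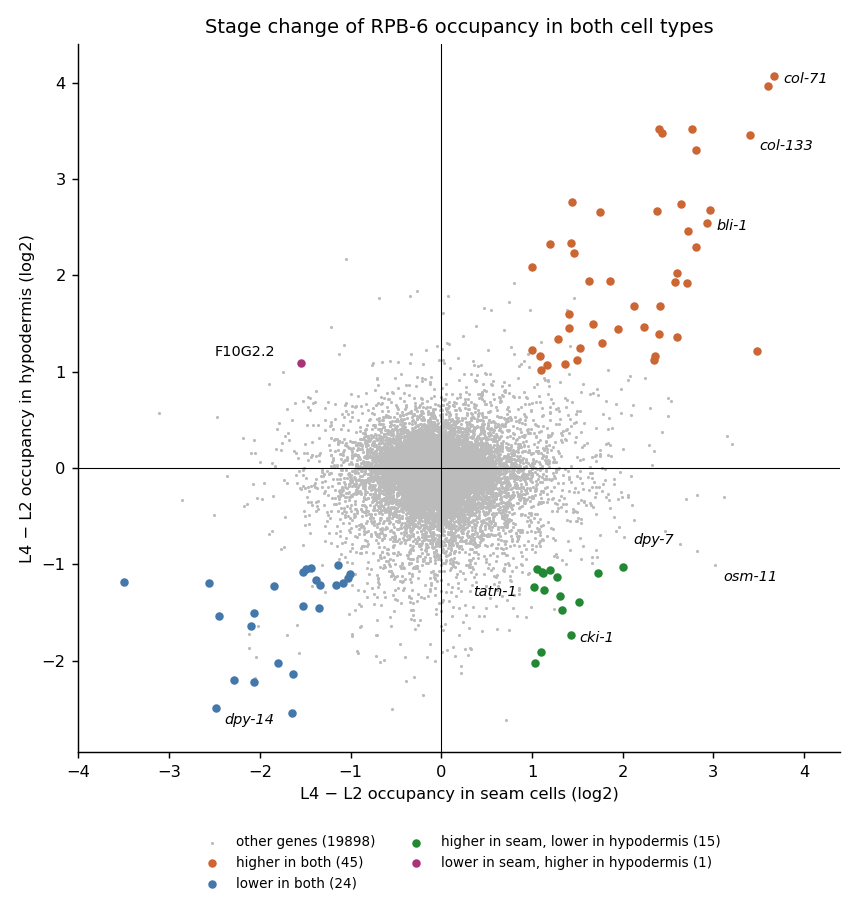
Each point is a gene, placed by its mean L4 − L2 occupancy (log2) in seam cells on the x axis and in hypodermis on the y axis, with 2 replicates per stage. The 45 genes higher in both cell types fill the upper right and reach *col-71* at 3.67 and 4.07, and the 15 genes higher in seam cells and lower in hypodermis lie at the lower right around *cki-1* at 1.43 and −1.73.

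Cuticle collagens made up most of the genes that were higher at L4 in both cell types. They were 30 of the 45 genes: 24 of the 156 *col* collagen genes tested and 6 collagens known by their mutant names, *bli-1*, *bli-2*, *bli-6*, *dpy-4*, *lon-3* and *rol-8*. The class held 0.225% of all genes. The *col* genes as a whole had a median change of 0.43 in seam cells and 0.13 in hypodermis, against −0.06 and −0.01 over all genes, and none of them was lower in both. The 24 *col* genes reached medians of 2.34 and 2.44 in the seam L4 samples from 0.09 and 0.07 at L2, and of 3.26 and 2.39 in the hypodermal L4 samples from 0.42 and 0.17. Of these 24, 14 had occupancy below 0.75 in all 4 L2 samples, and 17 had an interaction below 0, that is, a larger change in hypodermis. Over all genes, 41.5% had an interaction above 0. In hypodermis at L4, replicate 1 had the higher median, and its part in the count of 17 was not tested. Collagens are near-identical in places, so part of their signal may be shared between copies where reads could not be placed.

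The collagen *col-71* had the largest joint change. Its occupancy in seam cells was −0.37 and 0.15 at L2 and 3.78 and 3.33 at L4, and in hypodermis 0.02 and −0.59 at L2 and 4.91 and 2.65 at L4. No L2 sample came near an L4 sample in either cell type, and the changes of 3.67 and 4.07 (SE 0.75 each) differed by less than their error (interaction −0.40, SE 1.07, limma adjusted p = 0.949). *col-175* went from 0.02 and −0.98 to 2.77 and 3.48 in seam cells and from −1.06 and −0.47 to 4.23 and 2.16 in hypodermis. *col-133* had close replicates in seam cells, at 0.01 and 0.08 against 3.46 and 3.44 in seam cells and 0.32 and 0.27 against 4.41 and 3.08 in hypodermis. *col-63* stood at −0.08 and 0.16 against 2.66 and 3.04 in seam cells, and at −0.26 and −0.01 against 3.35 and 2.99 in hypodermis. The changes of *col-63* had the smallest error of these (SE 0.21), with limma adjusted p-values of 0.177 in seam cells and 0.231 in hypodermis.

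Collagens with known roles were among these genes. *bli-6*, whose mutants have a blistered cuticle, stood at 0.00 and 0.04 at L2 and 2.61 and 2.95 at L4 in seam cells, and at −0.75 and −0.31 against 3.46 and 2.52 in hypodermis. BLI-1 and BLI-2 build the struts that join the layers of the adult cuticle. *bli-1* was at 0.11 and 0.53 against 3.58 and 2.92 in seam cells, and at 0.95 and 0.23 against 3.17 and 3.09 in hypodermis. *bli-2*, covered by only 2 fragments, was less even, with changes of 1.20 in seam cells and 2.32 in hypodermis, where its L4 replicates stood at 3.35 and 0.47. *col-19*, the adult collagen most used as a marker of the larva-to-adult switch, was at 0.22 and −0.04 against 1.62 and 0.56 in seam cells, and at −0.05 and 0.03 against 1.99 and 0.42 in hypodermis. The body-shape collagens *lon-3*, *rol-8* and *dpy-4* differed in starting point, since they were occupied at L2 in every sample (2.47 to 5.33) and went to between 4.70 and 6.97 at L4.

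The 250 bases before the annotated gene start are shown for 5 of these collagens and for *cki-1*, a gene with opposite changes described further on, because genes that move together may share short words there. Capitals mark TGATAA and AGATAG, 2 forms of the GATA factor word searched on both strands, and TATAAA searched on the gene's strand in the last 100 bases. The paper reported TGATAA upstream of its hypodermal gene sets and AGATAG upstream of its seam sets. Those sets were called from the same experiment, so these 2 words are not independent of the data. The word TATAAA was added after these windows had been seen. Coordinates are WBcel235, the sequence is RefSeq's, and no annotated exon overlaps any of the windows.
*col-71*, chrII:3502571-3502820, minus strand: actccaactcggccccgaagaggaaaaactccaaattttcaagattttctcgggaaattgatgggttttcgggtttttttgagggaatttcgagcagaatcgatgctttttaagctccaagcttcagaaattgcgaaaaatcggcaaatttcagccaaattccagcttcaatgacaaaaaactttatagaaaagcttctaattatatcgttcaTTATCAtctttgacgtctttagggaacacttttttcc
*col-175*, chrX:9234619-9234868, minus strand: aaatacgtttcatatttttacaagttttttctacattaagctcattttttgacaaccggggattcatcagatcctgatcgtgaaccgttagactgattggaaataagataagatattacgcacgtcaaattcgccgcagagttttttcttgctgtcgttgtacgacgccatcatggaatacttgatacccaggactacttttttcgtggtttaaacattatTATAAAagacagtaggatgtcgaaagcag
*col-133*, chrIV:14099357-14099606, minus strand: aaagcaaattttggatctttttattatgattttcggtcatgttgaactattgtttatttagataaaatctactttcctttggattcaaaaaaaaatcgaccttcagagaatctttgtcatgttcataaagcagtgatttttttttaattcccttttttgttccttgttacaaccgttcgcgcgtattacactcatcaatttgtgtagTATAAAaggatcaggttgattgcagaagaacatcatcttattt
*bli-6*, chrIV:6376815-6377064, plus strand: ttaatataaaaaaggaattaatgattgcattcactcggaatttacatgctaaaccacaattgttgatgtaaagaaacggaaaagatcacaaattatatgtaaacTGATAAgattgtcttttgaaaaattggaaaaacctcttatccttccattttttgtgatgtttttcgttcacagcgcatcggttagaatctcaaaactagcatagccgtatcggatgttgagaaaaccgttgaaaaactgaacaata
*col-19*, chrX:421457-421706, plus strand: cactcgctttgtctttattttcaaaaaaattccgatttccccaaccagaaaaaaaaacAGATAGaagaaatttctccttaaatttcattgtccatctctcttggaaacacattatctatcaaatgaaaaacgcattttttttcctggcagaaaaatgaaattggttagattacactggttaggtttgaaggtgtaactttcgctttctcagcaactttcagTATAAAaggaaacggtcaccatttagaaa
*cki-1*, chrII:7810990-7811239, plus strand: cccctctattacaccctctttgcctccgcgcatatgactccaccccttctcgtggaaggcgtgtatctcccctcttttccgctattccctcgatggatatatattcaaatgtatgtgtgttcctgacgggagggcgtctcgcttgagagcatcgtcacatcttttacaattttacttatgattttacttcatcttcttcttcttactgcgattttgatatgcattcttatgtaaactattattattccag

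*col-71* has TGATAA on the opposite strand 37 bases before its start, *bli-6* has TGATAA at 146 bases, and *col-19* has AGATAG at 192 bases. TATAAA begins 29 bases before the start of *col-175* and *col-19* and 43 bases before that of *col-133*. The window of *cki-1* held none of the 3 words. TGATAA or AGATAG was present in the windows of 20 of the 45 genes higher in both cell types (44.4%), of 4 of the 15 genes higher in seam cells and lower in hypodermis (26.7%), and of 6478 of 19973 nuclear genes (32.4%). Among the *col* genes it was present for 14 of the 24 higher in both (58.3%) and for 44 of the 132 others (33.3%). TATAAA near the start was present for 13 of these 24 (54.2%) and for 64 of the 132 others (48.5%), against 12.7% of all nuclear genes, so its share was close in the 2 sets of *col* genes. These matches describe the letters alone.

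The other genes higher in both cell types included parts of the secretory and matrix machinery. *noah-1* encodes a zona pellucida protein of the apical matrix under the cuticle, and stood at 0.91 and 1.60 against 4.01 and 3.18 in seam cells and at 2.24 and 1.65 against 3.19 and 2.94 in hypodermis. *nas-37*, an astacin protease needed to shed the old cuticle, had changes of 1.37 in seam cells and 1.08 in hypodermis. *trap-2*, a subunit of the translocon-associated complex, had changes of 2.40 and 1.39, and *fkb-5*, a peptidyl-prolyl isomerase of the FKBP family, 1.28 and 1.34. *dao-2* had the most unequal changes of the class, 3.48 in seam cells and 1.21 in hypodermis (interaction 2.27, SE 0.98). The remaining genes included *taf-13*, a TFIID subunit, and 9 genes without a name, of which K02E11.10 reached 5.47 in both hypodermal L4 samples.

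Among the 24 genes lower at L4 in both cell types, the collagen *dpy-14* and antimicrobial peptide genes stood out by name. *dpy-14*, a collagen needed early for body shape, went from 2.10 and 3.68 to 0.12 and 0.68 in seam cells and from 4.50 and 4.39 to 1.29 and 2.62 in hypodermis, a change of −2.49 in each (SE 0.67). *nlp-29*, an epidermal antimicrobial peptide induced by infection and wounding, went from 1.19 and 2.09 to 0.01 and 0.00 in seam cells and from 2.51 and 1.93 to −0.05 and 0.21 in hypodermis. Its neighbour *nlp-34*, 5290 bases away on chromosome V with no fragment in common, had changes of −1.85 and −1.22. Both genes have 2 fragments. Of the 21 antimicrobial peptide genes listed these 2 were the members lower in both, against 0.12% of all genes. C13G3.1 went from 2.72 and 1.14 to 1.10 and −0.85 in seam cells and from 2.93 and 3.31 to 1.00 and 1.20 in hypodermis. ZC21.10 had changes of −2.10 and −1.64. *crn-2*, a nuclease gene, had changes of −2.56 and −1.20, and *cdr-2*, a gene related to one induced by cadmium, −1.34 and −1.22.

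Of the genes lower in both cell types, 1 is a body wall muscle marker and 2 lie in the mitochondrial genome. The 9 body wall muscle markers had a median change of −0.83 in seam cells and −0.08 in hypodermis. *pat-10*, body wall muscle troponin C, went from 1.89 and 1.67 to 0.01 and −1.34 in seam cells and from 0.50 and −0.60 to −1.40 and −1.77 in hypodermis. The mitochondrial genes COX3 and ND1 had seam changes of −1.64 and −2.06 and hypodermal changes of −2.55 and −2.22, and the 10 genes of the mitochondrial genome had medians of −1.87 and −1.68. COX3 ran from 0.28 to −4.70 among the hypodermal samples. The mitochondrial genome is not transcribed by RNA polymerase II, and its medians were the lowest of any chromosome. Of the remaining members, *txt-18* overlaps C32D5.8 and shares its 9 fragments with it, so the values of these genes are not independent. R08C7.11, on 1 fragment, had the largest seam change of the class, −3.50, beside −1.19 in hypodermis. *skr-2*, a subunit of ubiquitin ligases, had changes of −1.08 and −1.19, and *allo-1*, an autophagy adaptor for paternal mitochondria, −1.35 and −1.45. Over all 24 genes the median change was −1.58 in seam cells and −1.22 in hypodermis, and 7 of them have fewer than 3 fragments.

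The 15 genes higher at L4 in seam cells and lower in hypodermis were led by *cki-1*. CKI-1 is a cyclin-dependent kinase inhibitor of the p27 family that holds cells out of division. In seam cells *cki-1* stood at 0.79 and 1.36 at L2 and at 3.24 and 1.77 at L4, and in hypodermis at 1.74 and 2.13 at L2 and at 0.56 and −0.15 at L4. The stages did not overlap in either cell type, with a change of 1.43 in seam cells, one of −1.73 in hypodermis and an interaction of 3.16 (SE 0.78, limma adjusted p = 0.778). The interaction of *cki-1* lay between 1.58 and 3.90 over all alternative settings. It was the only one of 41 cell cycle genes listed with opposite changes. Its paralogue *cki-2* had changes of −0.03 and −0.11, and the list had a median interaction of 0.02 (−0.02 with samples scaled to the same SD), with 21 of 41 above 0.

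Among the other members, *tatn-1*, tyrosine aminotransferase, the first enzyme of tyrosine breakdown, stood at 0.69 and 1.87 against 2.47 and 2.14 in seam cells and at 4.08 and 4.07 against 2.89 and 2.79 in hypodermis. Its interaction was 2.255 (SE 0.54), and at each stage both hypodermal values lay above both seam values. *lbp-6*, a fatty acid-binding protein gene, stood at −0.61 and −0.55 against 0.69 and 0.37 in seam cells and at 1.73 and 2.15 against 1.15 and 0.58 in hypodermis. With an SE of 0.35 around 2.18 it was the most precise interaction of the class. *col-39* was the 1 *col* gene here, at 2.47 and 3.61 against 4.65 and 3.83 in seam cells and at 6.43 and 5.52 against 5.30 and 4.53 in hypodermis. It lies 2940 bases from *bli-1*, which was higher in both, and the 2 genes share no fragment.

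Other named members were *rpl-24.2*, placed in the list of ribosomal proteins (interaction 2.81), and *snr-6*, a core protein of the splicing particles (2.21). The class also held *hrg-9*, a haem-responsive gene (2.40), *dpm-3*, a subunit of the dolichol-phosphate mannose synthase (2.41, on 1 fragment), and *flp-8*, a neuropeptide gene (2.64). The genes without a name were F08F8.11 (3.06), K01D12.9 (3.03), F42C5.6 (3.01), F07A11.5 (2.92), F37A4.3 (2.81) and T01D1.4 (2.10). In some of them the seam stages lay close, as in F37A4.3 at −0.46 and 1.31 against 1.37 and 2.13. F08F8.11 stood at −1.997 and −0.0749 against −0.0002 and 0.0006 in seam cells, with replicate changes of 1.9969 and 0.0756. Its seam values at L4 were thus level with the control fusion, and its seam change came mostly from replicate 1 at L2. K01D12.9 was clearer in seam cells, at 0.41 and 0.36 against 2.78 and 1.99. Its hypodermal stages lay close, at 4.02 and 4.53 against 3.91 and 2.58, with replicate changes of −0.11 and −1.95. F10G2.2 was the 1 gene the other way round, at −0.75 and 0.37 against −1.83 and −1.65 in seam cells and at −1.87 and −1.70 against −0.14 and −1.25 in hypodermis (interaction −2.63). Its values were below 0 in 7 of 8 samples, that is, below the control fusion. Without replicate 1 of seam cells at L2, the count of genes higher in seam cells and lower in hypodermis was 18, with 8 of the 15 among them. Without replicate 2 of that group it was 42, with 12 of the 15. The condition of no overlap is easier to meet with 1 sample left out, so these counts are not directly comparable with 15.

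**Figure D2:**
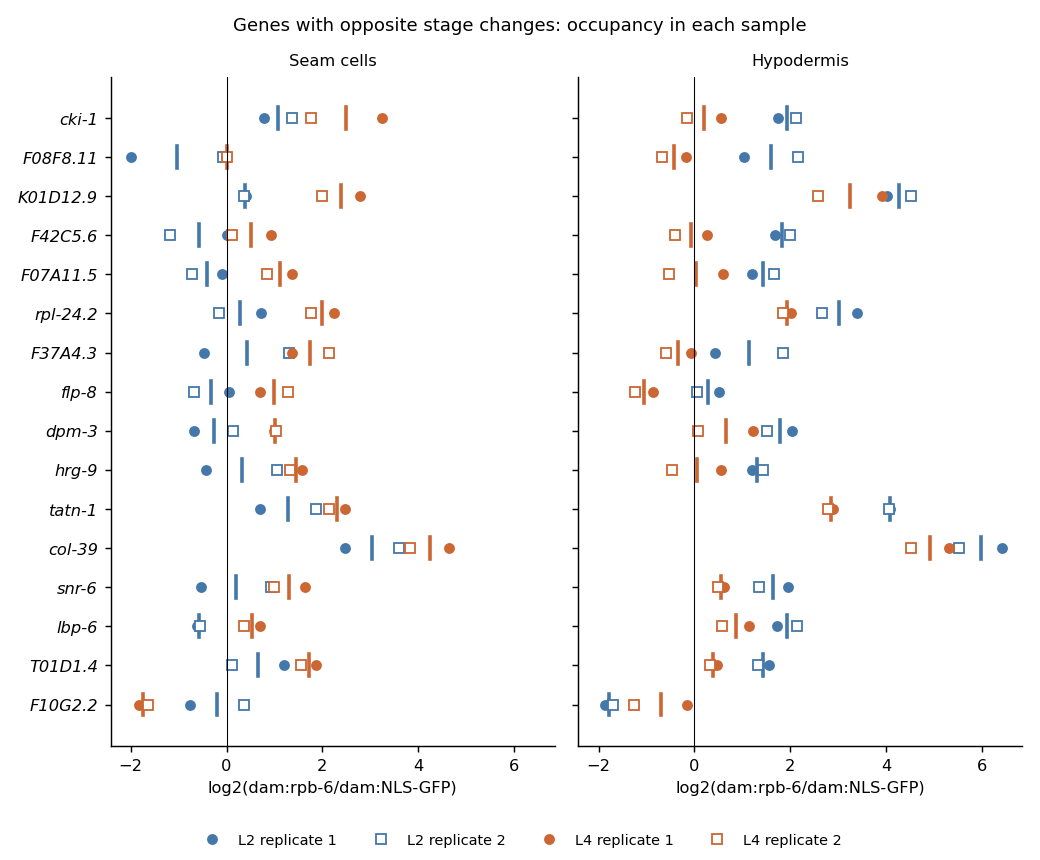
Occupancy, log2(*dam:rpb-6/dam:NLS-GFP*), in each sample for the 15 genes higher at L4 in seam cells and lower in hypodermis and, at the bottom, F10G2.2 with the reverse. Points are the 2 replicates of each stage and vertical bars their means, so *cki-1* moves right from L2 to L4 in the left panel (change 1.43) and left in the right panel (change −1.73).

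Of the 5 largest interactions among genes with at least 3 fragments and replicate changes that did not overlap between the cell types, 4 belonged to genes higher in seam cells alone. *osm-11*, a secreted co-ligand of Notch receptors made by the epidermis, had the largest of all, 4.02 (SE 1.06, limma adjusted p = 0.778). It stood at 0.82 and 2.58 against 4.86 and 4.57 in seam cells and at 5.22 and 4.53 against 4.61 and 3.12 in hypodermis, so that it was higher in hypodermis at L2 and the cell types overlapped at L4. *vha-9*, a subunit of the vacuolar proton pump, stood at −1.24 and 2.01 against 3.64 and 2.77 in seam cells and at 3.16 and 3.04 against 2.06 and 2.41 in hypodermis (interaction 3.68, SE 1.48). F47B8.18 was at 0.08 and 1.59 against 4.26 and 3.65 in seam cells and between −1.04 and 0.08 in all hypodermal samples, so its interaction of 3.42 came from the seam cells. F28F5.4 also had 3.42, from seam values of −2.67 and −2.58 against 1.45 and −1.44. *ttr-30*, a transthyretin-related gene (3.34), had overlapping seam stages and was lower in hypodermis alone, at 3.77 and 3.01 against 0.90 and 0.65.

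At the other end, *ssp-33*, of a sperm protein family, had the lowest interaction, −3.67 (SE 1.65), from seam values of 2.38 and 0.08 against −2.98 and −0.77. F53A9.9 followed under the same conditions at −2.999 (SE 0.61), with 1.07 and 0.52 against −1.16 and −2.19 in seam cells and at −1.36 and −1.16 against −0.37 and −1.08 in hypodermis. W02B3.3 (−2.77) and *elc-2*, an elongin C gene (−2.68), had overlapping seam stages. None of these 4 genes had a hypodermal value above 0.

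The collagens of the annular furrows, the circular grooves of the cuticle, were all higher at L4 in seam cells alone, a class that held 1.62% of all genes. The 6 genes *dpy-2*, *dpy-3*, *dpy-7*, *dpy-8*, *dpy-9* and *dpy-10* had seam changes from 1.24 to 2.50 and a median of 1.59, against a median of 0.61 in hypodermis. Their median interaction was 1.21, and 5 of 6 were above 0. That median was 0.53 with samples scaled to the same SD and 0.49 under quantile normalisation. Genes with a mean occupancy of 2 or over had medians of 0.30 and 0.33 under these settings. *dpy-7* stood at 1.05 and 2.92 against 4.15 and 3.86 in seam cells and at 3.26 and 2.39 against 2.75 and 1.47 in hypodermis (interaction 2.73, SE 1.07). *dpy-8* stood at 0.22 and 3.44 against 4.15 and 4.50 in seam cells, with L2 replicates that lay far apart. Among 13 other body-shape collagens, 4 were higher in both, 5 in seam cells alone, 1 lower in both and 1 lower in hypodermis alone. *dpy-13* reached 7.97 and 7.83 in seam cells at L4 from 4.72 and 6.20, with 6.52 and 5.70 against 6.35 and 6.63 in hypodermis (interaction 2.05), and *sqt-3* had an interaction of 2.34. The body-shape list had a median interaction of 0.65, which turned to −0.12 when each sample was scaled to the same SD and to −0.07 under quantile normalisation, and was 0.16 without replicate 1 of hypodermis at L2.

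The *col* genes with the largest interactions were higher in seam cells alone. *col-110* stood at −1.45 and −0.99 against 1.62 and 2.25 in seam cells and stayed below 0 in hypodermis, between −2.11 and −1.29 (interaction 2.83, SE 0.47). *col-160* stood at 1.91 and 2.75 against 4.38 and 3.60 in seam cells and at 5.22 and 5.62 against 4.50 and 4.37 in hypodermis (2.65, SE 0.54), just short of the size of 1 in hypodermis. Over the 156 genes the median interaction was 0.11, with 89 above 0, and it was 0.04 under quantile normalisation and −0.0026 with samples scaled to the same SD, and −0.07 without replicate 2 of hypodermis at L4 (70 above 0). There were 8 at an unadjusted p under 0.05 above 0 and 3 below, against 3.2% and 2.69% of all genes. Collagen processing and crosslinking enzymes had a median of 0.59 with 14 of 16 above 0. Of these enzymes 3 were higher in seam cells alone, against 1.62% of all genes. That median was 0.17 without replicate 1 of seam cells at L2, 0.16 without replicate 2 of hypodermis at L4 (11 of 16 above 0) and −0.09 with same-numbered controls. *doxa-1*, a maturation factor of the dual oxidase that crosslinks the cuticle, led them with 1.22.

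The precuticle is the temporary matrix on which each new cuticle is built, and most of its genes were higher in seam cells. Of 18 listed, 11 were higher in seam cells alone, against 1.62% of all genes, and *noah-1* in both. The median change was 1.30 in seam cells and 0.12 in hypodermis. Genes with a mean occupancy of 1 to 2 had a median seam change of 0.52, and those at 2 or over 0.80. *lpr-6*, a lipocalin, stood at 0.72 and 1.43 against 3.21 and 2.91 in seam cells and at 1.77 and 0.95 against 1.61 and 0.51 in hypodermis (interaction 2.29, SE 0.69). *egg-6*, a leucine-rich repeat protein of the apical surface, stood at 0.03 and 1.20 against 2.07 and 2.32 in seam cells (1.93, SE 0.56). *fbn-1*, a fibrillin-related gene, stood at 0.14 and 1.14 against 3.17 and 2.71 in seam cells, with a change of 0.62 in hypodermis. The median interaction of the list was 1.18, 0.71 without replicate 1 of seam cells at L2 and 1.66 without replicate 2. Of the 18 genes, 6 with an interaction above 0 and 1 below 0 had an unadjusted p under 0.05, against 3.2% and 2.69% of all genes.

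Moulting genes had a median interaction of 0.56, with 19 of 22 above 0 and 9 higher in seam cells alone, a class that held 1.62% of all genes. With 1 sample left out the median lay between 0.36, without replicate 2 of hypodermis at L4, and 0.96, without replicate 2 of seam cells at L2. *bed-3*, a zinc-finger factor of the moulting cycle, stood at 0.47 and 1.59 against 2.85 and 2.47 in seam cells and at 3.38 and 2.64 against 3.28 and 2.64 in hypodermis (1.68, SE 0.68). The nuclear receptor *nhr-23*, which drives each moult, was at 1.15 and 2.03 against 3.19 and 2.56 in seam cells and at 1.57 and 0.98 against 1.44 and 0.79 in hypodermis (1.44, SE 0.62). *nhr-25*, another epidermal receptor, had changes of −0.35 and −0.86. Of 9 hypodermal transcription factors all had an interaction above 0, with a median of 0.94, against 41.5% of all genes above 0. That share was 75.4%, 80.8% and 84.4% among genes with a mean occupancy of 0.5 to 1, 1 to 2, and 2 or over. Without replicate 1 of seam cells at L2, 7 of the 9 factors were above 0. Their median was 0.05 with same-numbered controls. The GATA factor *elt-3* stood at −0.05 and 1.14 against 1.52 and 0.72 in seam cells and at 2.06 and 1.61 against 1.11 and 0.32 in hypodermis (1.70), and the Grainyhead factor *grh-1* had changes of 1.17 and −0.32. *elt-1*, the GATA factor that keeps seam fate, stood at 0.90 and 2.21 against 2.40 and 2.12 in seam cells and between −0.21 and 0.20 in hypodermis, with replicate 2 at L2 inside the range of the L4 samples.

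The heterochronic genes, which time larval fates, mostly had small changes. The median interaction of 20 was 0.37, with 19 above 0, or 13 without replicate 1 of seam cells at L2. Without replicate 2 of hypodermis at L4 it was 0.013, with 11 above 0. *lin-29*, the zinc-finger factor that starts the adult programme, had the steadiest change, at 0.42 and 0.19 against 1.28 and 1.06 in seam cells and at 0.24 and −0.12 against 0.69 and 0.39 in hypodermis. *lin-14*, *lin-28*, *lin-41*, *lin-42* and *hbl-1* had seam changes from −0.19 to 0.48 and hypodermal changes from −0.30 to 0.21. *blmp-1* (1.32), *dre-1* (1.12) and *mab-10*, a cofactor of *lin-29* (1.12), had the largest interactions of the list. *mab-10* stood at 0.25 and 0.25 against 2.23 and 1.91 in seam cells and at 0.04 and 0.30 against 1.38 and 0.35 in hypodermis. The fusogens *eff-1*, which joins epidermal cells to the hypodermis, and *aff-1*, which fuses the seam cells at L4, had seam changes of 0.63 and 0.72 and hypodermal changes of −0.26 and 0.12. *aff-1* was at 0.49 and −0.07 against 0.91 and 0.94 in seam cells and at or below 0 in every hypodermal sample, between −0.32 and −0.02. The 18 seam fate and division regulators had a median interaction of 0.22 and no member in any class. That median was −0.0053 without replicate 1 of seam cells at L2 (9 of 18 above 0) and −0.16 with same-numbered controls.

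The 8 genes of phenylalanine and tyrosine catabolism had a median change of 0.33 in seam cells and −0.60 in hypodermis, and a median interaction of 1.10 that lay between 0.88 and 1.36 with any 1 sample left out. Members were not alike: *tatn-1* had opposite changes, *fah-1* was higher in seam cells alone, *pah-1* lower in hypodermis alone, and *pcbd-1* (−2.08) and *gst-42* (−1.38) lower in seam cells alone. *fasn-1*, the fatty acid synthase, stood at 3.64 and 4.42 against 5.26 and 4.58 in seam cells and at 4.37 and 4.26 against 3.54 and 3.09 in hypodermis (1.89, SE 0.50). *fat-6*, a desaturase, had 1.48, and the 22 genes of fatty acid synthesis and desaturation had a median of 0.19 with 4 at an unadjusted p under 0.05, all above 0, against 3.2% of all genes. Among families of at least 10 genes with a common name stem, the highest median interactions were those of *vha* genes for the proton pump (0.80, 17 of 20 above 0), *rpb* genes for RNA polymerase II subunits (0.61) and *rps* genes for small ribosomal proteins (0.53). The lowest were those of *him* (−0.36), *aqp* (−0.27) and *pho* genes (−0.27). Without replicate 1 of seam cells at L2 the *vha* median was 0.40, the *rpb* median 0.15, the *rps* median −0.15 and the *him* median 0.0078.

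Families of secreted signals and other matrix genes lay near the median of all genes, which was −0.05. Ground-like genes had a median interaction of 0.16, which was −0.07 with samples scaled to the same SD, −0.03 under quantile normalisation and −0.21 without replicate 2 of hypodermis at L4. The medians were 0.09 for warthog genes, −0.03 for groundhog genes, −0.11 for cuticlins and −0.06 for astacins. Single members stood apart, such as *grl-2* (1.42, SE 0.35), *wrt-3* (1.32, SE 0.37) and the patched-related *ptr-4* (2.02, SE 0.70). The cuticlin *cut-3* was at 0.36 and 2.51 against 0.46 and 1.34 in seam cells and at 4.35 and 4.83 against 2.10 and 2.07 in hypodermis. *cutl-14* was level in seam cells, between 0.30 and 0.55, and went from 1.55 and 1.30 to 0.55 and 0.37 in hypodermis (1.10, SE 0.18). The Wnt receptor gene *cam-1* had one of the more precise negative interactions, −1.12 (SE 0.22), from 0.36 and 0.38 against −0.42 and −0.71 in seam cells. Body wall muscle markers had a median interaction of −1.04, with 1 of 9 above 0, and one of −0.47 without replicate 2 of seam cells at L2. *unc-54*, muscle myosin, stood at 0.84 and 2.84 against 0.37 and −0.10 in seam cells and below −0.80 in all hypodermal samples. The part of muscle signal in other genes that were lower in seam cells was not tested.

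**Figure D3:**
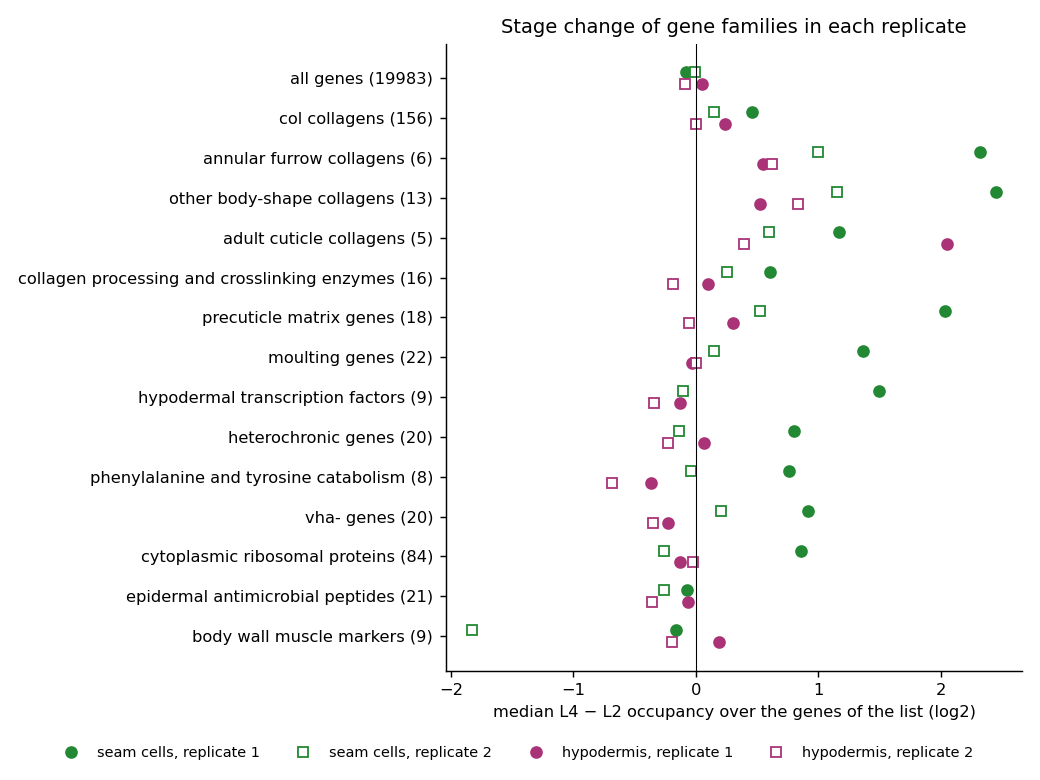
Median L4 − L2 occupancy (log2) over the genes of 14 families and over all genes, with the number of genes in brackets, for each replicate number in seam cells and in hypodermis. In precuticle genes the seam medians are 2.03 and 0.52 and the hypodermal medians 0.30 and −0.06, so replicate 1 has the larger seam median.

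The size of the interaction went with how strongly a gene was occupied and with replicate 1 of seam cells at L2. Genes with a mean occupancy below 0 over the 8 samples had a median interaction of −0.12 (9956 genes), and those at 2 or over had 0.96 (186 genes), with 84.4% above 0. In those 186 genes the median occupancy was 1.44 in replicate 1 of seam cells at L2, against 2.53 to 3.15 in the other 7 samples. Without that replicate their median interaction was 0.35, with 63.4% above 0, and without replicate 2 it was 1.45. With each sample scaled to the same SD it was 0.30, and with quantile normalisation 0.33. Family medians such as 1.21 for furrow collagens (0.52 without replicate 1 of seam cells at L2), 0.94 for hypodermal transcription factors (0.26) and 0.20 for ribosomal proteins (−0.07, and −0.06 with samples scaled to the same SD) are therefore to be read beside those of genes of the same occupancy. The part of that replicate and of the level of occupancy in each family's value was not tested. The counts of family members higher in seam cells alone were set against genes of any occupancy. The share of that class among genes of like occupancy was not counted.

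**Figure D4:**
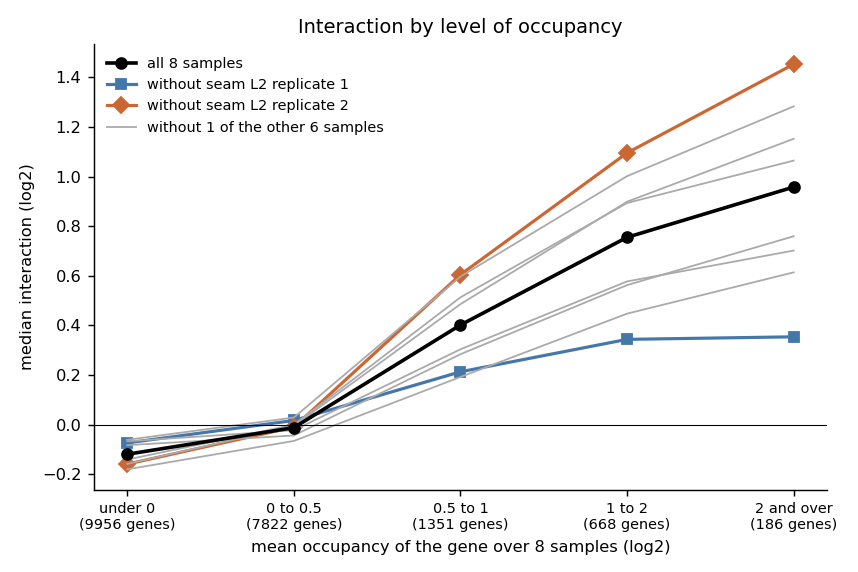
Median interaction (log2) of genes grouped by their mean occupancy over the 8 samples, with the number of genes under each group. The black line uses all 8 samples and ends at 0.96 for genes at 2 and over, the blue line leaves out replicate 1 of seam cells at L2 (0.35), the orange line replicate 2 (1.45), and the grey lines leave out each of the other 6 samples in turn.

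The classes depended on the controls. With every *dam:rpb-6* sample set against the control of its own number, the genes higher in both cell types were 7 in place of 45. Those higher in seam cells and lower in hypodermis were 1 in place of 15. This setting differs from the main one in seam cells at L4 alone, where it includes replicate 1 against control 1. The 2 seam L4 replicates then correlated across genes at a Pearson r of −0.39. With each replicate averaged over both controls, and seam L4 replicate 1 set against control 2 alone, limma called 197 genes for the interaction, 680 for the seam change and 44 for the hypodermal change. The replicates then share controls and their spread is too small, so these counts are not comparable with the 0 above. The family medians of the interaction also moved with same-numbered controls, to −0.54 for furrow collagens, −0.96 for body-shape collagens, −0.16 for precuticle genes, −0.21 for moulting and for heterochronic genes and −0.40 for ribosomal proteins, whereas phenylalanine and tyrosine catabolism, at 0.57 from 1.10, and *vha* genes, at 0.29 from 0.80, were lower but above 0. With both controls averaged, 43 of the 45 genes higher in both and 14 of the 15 higher in seam cells and lower in hypodermis remained. With crossed controls in every group, 60 genes were higher in both, 43 of the 45 among them. The genes higher in seam cells and lower in hypodermis were then 20, with 8 of the 15 among them.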

How the data were processed

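The authors aligned Illumina reads to WBcel235 with Bowtie2 2.3.4 and SAMtools 1.9 (submitters' processing notes) and deposited log2(*dam:rpb-6/dam:NLS-GFP*) for 269057 GATC fragments in each pair of a fusion and a control sample. Only these ratios were used, so read depth and its precision are unknown. Replicate 1 was paired with control 1 and replicate 2 with control 2, except in seam cells at L4. The score at 0 took 14.0% to 44.6% of fragments. Mean profiles and the authors' gene calls were not used.

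Gene occupancy was the length-weighted mean over the fragments overlapping a protein-coding gene (Ensembl annotation 115), in Python 3.11.15 with pandas 2.3.3 and numpy 2.4.6. limma 3.58.1 in R 4.3.3 fitted 4 groups to 8 samples, with Benjamini-Hochberg adjustment over 19983 genes. The fit was tested on simulated data with known changes. The members and 36 gene lists were chosen with earlier results of these data known.

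Named genes were those with at least 3 fragments with the 5 largest interactions in each direction, the 5 largest joint and opposite changes, and, of each list, members in a class of same or opposite direction, the 2 largest interactions and 15 preset genes. The remaining members of the classes, *cht-5*, *mab-10*, *cki-2*, *gst-42*, *fah-1* and *pah-1*, and the genes just beyond the size of 1, were named after their values were seen. In each strain, L2 and L4 animals of a replicate number came from 1 population, so the numbers pair the stages, and deviations from group means correlated at −0.12 in seam cells and 0.23 in hypodermis. Replicates were separate populations, as far as the labels say.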

Additional observations from a re-analysis of the deposited data

Results flagged for a closer look

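The replicate changes of the 2 cell types took opposite signs in both replicates for the genes given here with their interaction (log2). None passed the adjusted threshold of the limma interaction test. For genes with opposite changes beyond 1 the rule itself requires these signs, so the signs add no separate evidence from replicates. The share of all genes with such signs was not counted, so the list has no background to be read against. Among genes with opposite changes beyond 1 these were *cki-1* (3.16), F08F8.11 (3.06), K01D12.9 (3.03), F42C5.6 (3.01), F07A11.5 (2.92), *rpl-24.2* (2.81), F37A4.3 (2.81), *flp-8* (2.64), *dpm-3* (2.41), *hrg-9* (2.40), *tatn-1* (2.255), *col-39* (2.25), *snr-6* (2.21), *lbp-6* (2.18), T01D1.4 (2.10) and F10G2.2 (−2.63). Among the largest interactions they were *osm-11* (4.02), *vha-9* (3.68), F28F5.4 (3.42), F53A9.9 (−2.999) and W02B3.3 (−2.77).

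Among epidermal matrix genes and regulators they were *dpy-7* (2.73), *col-160* (2.65), *lpr-6* (2.29), *egg-6* (1.93), *grh-1* (1.498), *nhr-23* (1.44), *wrt-3* (1.32), *blmp-1* (1.32), *doxa-1* (1.22), *cutl-14* (1.10) and *let-805* (1.07). Among metabolic and other genes they were *rps-11* (2.58), *fasn-1* (1.89), *ptr-14* (1.52), *fat-6* (1.48) and *cdk-5* (−1.65). In the same contrast, replicate 1 of seam cells at L2 had the lowest median occupancy over strongly occupied genes, and its part in these values was not tested.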

How the results depend on the processing

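The interaction called 0 genes with every replicate left out in turn and under all alternatives but 1. Fitting the replicate block, which pairs L2 and L4 within a strain, left 0 calls, with 1166 genes at an unadjusted p under 0.05, and changed no other call. Averaging each replicate over both controls, which makes replicates share controls, gave 197 called interactions, 3750 at an unadjusted p under 0.05, 680 calls in seam cells and 44 in hypodermis, and 3 genes lower in seam cells and higher in hypodermis. Same-numbered controls in every group gave 458 interactions at an unadjusted p under 0.05, 7 genes higher in both and 1 higher in seam cells and lower in hypodermis. That setting differs from the main one in seam cells at L4 alone. Crossed controls in every group gave 0 genes lower in seam cells and higher in hypodermis. With at least 5 fragments per gene there were 15 genes lower in both, 9 higher in seam cells and lower in hypodermis and 0 the other way, from fewer genes. Samples scaled to the same SD gave 7 and 0 for the opposite classes, and quantile normalisation gave 7 for the first. Of the 15 genes higher in seam cells and lower in hypodermis, 6 remained with the same SD and 5 under quantile normalisation. A size of 0.5 gave 101 genes higher in both, 143 lower in both, and 114 and 32 with opposite changes. The causes were not tested.

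Leaving out 1 sample at a time gave 927 to 3050 interactions at an unadjusted p under 0.05, the highest without seam L2 replicate 2. Calls ranged from 0 to 2 in seam cells and from 0 to 1 in hypodermis. Genes higher in both numbered 36 to 80 (lowest without hypodermis L4 replicate 1, highest without its replicate 2), and lower in both 17 to 59 (highest without seam L2 replicate 1). Higher in seam cells and lower in hypodermis were 10 to 42 (highest without seam L2 replicate 2), and the reverse 0 to 12. With 1 sample left out the condition of no overlap between stages is easier to meet. These class counts are therefore not directly comparable with those from all samples. The correlation of the stage changes ranged from 0.0135 to 0.166.

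With same-numbered controls the interaction changed sign for *col-39* (−0.090), *dpy-8* (−0.12), *sqt-3* (−0.30), *dpy-13* (−1.92), *nhr-23* (−0.17), *elt-1* (−0.29), *fasn-1* (−0.75), *noah-1* (−0.82) and *blmp-1* (−0.42), and the seam change for *lin-14* (−0.23), *lin-41* (−0.22), *lin-42* (−0.036), *lon-3* (−0.85), *rol-8* (−1.28) and *dpy-4* (−0.35). The seam change also changed sign for *lin-28* (0.070) and *nhr-25* (0.016) with crossed controls and for *lin-41* (−0.074) and *hbl-1* (−0.0715) with unweighted fragments. The hypodermal change of *hbl-1* was 0.10 with unweighted fragments and 0.028 under quantile normalisation. With 1 sample left out, seam changes ranged from −0.12 to 0.44 for *lin-14*, −0.48 to 0.11 for *lin-28*, −0.13 to 0.39 for *lin-41* and −0.83 to 0.14 for *nhr-25*. Hypodermal changes ranged from −0.78 to 0.18 for *lin-14*, −0.62 to 0.10 for *lin-28*, −0.28 to 0.43 for *lin-41*, −0.037 to 0.46 for *lin-42* and −0.47 to 0.26 for *hbl-1*.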

Other observations

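Nuclear hormone receptors, the largest family listed, had a median interaction of 0.06 over 269 genes, with 12 at an unadjusted p under 0.05 above 0 and 3 below, against 3.2% and 2.69% of all genes. Without replicate 2 of hypodermis at L4 the median was −0.011. *nhr-116* was the clearest, at −0.40 and 0.47 against 1.93 and 1.56 in seam cells and at 0.80 and 0.90 against 0.84 and −0.10 in hypodermis. Of 63 *ceh* homeobox genes 15 were above 0, with a median of −0.14 and 3 at an unadjusted p under 0.05, all below 0, against 2.69% of all genes. Without replicate 1 of seam cells at L2 that median was −0.047.

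Genes of the hemidesmosomes, which tie the epidermis to muscle, had a median interaction of 0.53, with 10 of 12 above 0. It was 0.17 without replicate 1 of seam cells at L4 (8 of 12 above 0), 0.17 under quantile normalisation and −0.0067 with same-numbered controls. *let-805*, a transmembrane protein of these attachments, stood at 0.42 and 1.30 against 1.78 and 1.51 in seam cells and at 2.19 and 2.01 against 1.83 and 1.81 in hypodermis. The antimicrobial peptide gene *cnc-10* was lower at L4 in seam cells alone, at 3.62 and 2.12 against 0.20 and 1.20, and stood between 2.94 and 4.16 in hypodermis.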
